A study of Mus musculus with 4 samples.

Results

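The genes described here encode the machinery by which β-cells turn a change in membrane potential into insulin release. They comprise the channels that set excitability and admit calcium, and the proteins that dock, prime, fuse and recycle secretory granules. The list held 32 genes, and a gene was read from the array feature whose annotation gave its symbol alone. Such a feature was found for 31 of the 32, each with 1 feature, out of 30176 genes read from the arrays in the same way. Cacnb3, a calcium channel β subunit, was not analysed here.

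Signals came from purified β-cells of female NOD mice, a strain that develops autoimmune diabetes, on Affymetrix Clariom D mouse arrays. The 4 arrays, 1 per condition, held RNA of Tyk2-/- and of Tyk2+/+ β-cells at 11w, and of Tyk2-/- and of Tyk2+/+ β-cells at 6w (11w and 6w being weeks of age), each pooled from several mice. Tyk2+/+ mice were wild type NOD mice, and Tyk2-/- mice carried a germline knockout, first made in 129/Sv, that had been crossed through C57BL/6J onto NOD, so all cells and not β-cells alone lacked Tyk2. A chromosome 9 marker, on the chromosome that carries Tyk2, was the 1 tested locus not of NOD origin in these mice. Tyk2 itself had signals of 17.1 in Tyk2-/- and 18.8 in Tyk2+/+ at 11w, and 16.8 in Tyk2-/- and 15.5 in Tyk2+/+ at 6w, close to the middle of each array's signals, and so did not check the genotypes. Sorting kept cells that took up a zinc dye and a dye of mitochondrial membrane potential, lacked CD45 and did not stain with propidium iodide. The questions were how the β-cell transcriptome differed between 11w and 6w within a genotype, and between Tyk2-/- and Tyk2+/+ mice at one age. With 1 array per condition no difference between 2 arrays has a replicate check, so no p-value is given for one, and precision is limited by how few arrays there are.

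Glucose metabolism in β-cells raises ATP, which closes KATP channels, depolarizes the membrane and opens voltage-gated calcium channels. The entering calcium is sensed by synaptotagmins, which trigger fusion of granules whose v-SNAREs (the VAMPs) have paired with the t-SNAREs (SNAP25 and the syntaxins) of the plasma membrane. Rab GTPases and their effectors bring granules to the membrane, priming factors ready them for fusion, and NSF with its adaptor takes used SNARE complexes apart.

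None of the 31 genes was called in any of the 4 comparisons. Calling a gene higher took a ratio above 1.5 with a Z score above 2, and calling it lower took a ratio below 0.66 with a Z score below −2. For the Z score, the log2 difference of a feature was set over the SD of such differences among the 1000 features nearest to it in mean signal. By these criteria, 2.97% of all genes were called between 11w and 6w in Tyk2-/- β-cells (1.62% higher and 1.35% lower at 11w) and 3.59% in Tyk2+/+ β-cells (2.14% higher and 1.45% lower). Between Tyk2-/- and Tyk2+/+ β-cells, 2.86% were called at 11w (1.51% higher and 1.35% lower in Tyk2-/-) and 2.35% at 6w (1.26% higher and 1.09% lower). A count of 0 among 31 genes lies near these shares in each comparison. The spread between arrays changed with the mean signal, so the ratio needed for a call differed between genes. It ran from 1.62-fold (Cplx1) to 5.96-fold (Abcc8) for age in Tyk2-/- β-cells, from 1.66-fold (Unc13a) to 5.39-fold (Cadps) for age in Tyk2+/+ β-cells, from 1.59-fold (Syt4) to 5.53-fold (Abcc8) for genotype at 11w and from 1.64-fold (Cplx1) to 4.54-fold (Syt13) for genotype at 6w. A difference smaller than a gene's own ratio was not detectable by these criteria.

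Median signals of all features were 17.5 in Tyk2-/- and 17.3 in Tyk2+/+ at 11w, and 16.2 in Tyk2-/- and 15.7 in Tyk2+/+ at 6w. Signals of different features are not on one scale, so genes are not ranked by level, and the comparison with receptor genes is a rough guide only. As a guide to background, 1716 olfactory and vomeronasal receptor genes, which β-cells are not known to use, had a 95th percentile of 26.3 in Tyk2-/- and 25.4 in Tyk2+/+ at 11w, and 23.1 in Tyk2-/- and 21.2 in Tyk2+/+ at 6w. Above it on all 4 arrays were 22 of the 31 genes, 7 were above it on 1 to 3 arrays, and Unc13a and Cplx1 were above it on none. The share of all genes above it is not given here, so the count describes the 31 genes only. Small differences in the 9 dimmer genes (Cacna1a, Scn3a, Syt4, Sytl4, Rab27a, Rims2, Rph3al, Unc13a and Cplx1) cannot be told apart from background. None of the 31 stood at the highest signal of an array, where differences could not be measured. Of the labelled cell type's markers, Ins2 had signals of 98683 in Tyk2-/- and 93930 in Tyk2+/+ at 11w, and 97214 in Tyk2-/- and 101685 in Tyk2+/+ at 6w. Slc30a8 and the transcription factor Nkx6-1 were also above the receptor percentile on all 4 arrays, while the transcription factors Mafa and Pdx1 were below it on all 4. Iapp stood at the highest signal of each array, so its differences could not be measured. Ins2 had the same log2 differences as Iapp with age in Tyk2+/+ β-cells (−0.11) and between the genotypes at 11w (0.07). These differences of Ins2 are therefore not taken as measured. Of 9 β-cell markers measured, G6pc2, Slc2a2 and Ucn3 were called lower at 11w in Tyk2+/+ mice, G6pc2 and Ucn3 lower in Tyk2-/- mice at 6w, and Mafa higher in Tyk2-/- mice at 11w. Ucn3 had signals of 34.9 in Tyk2-/- and 22.4 in Tyk2+/+ at 11w, and 22.0 in Tyk2-/- and 1067 in Tyk2+/+ at 6w, and G6pc2 had 189 in Tyk2-/- and 87.5 in Tyk2+/+ at 11w, and 95.4 in Tyk2-/- and 605 in Tyk2+/+ at 6w, so the 6w Tyk2+/+ array stood far above the others for both.

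**Figure D1:**
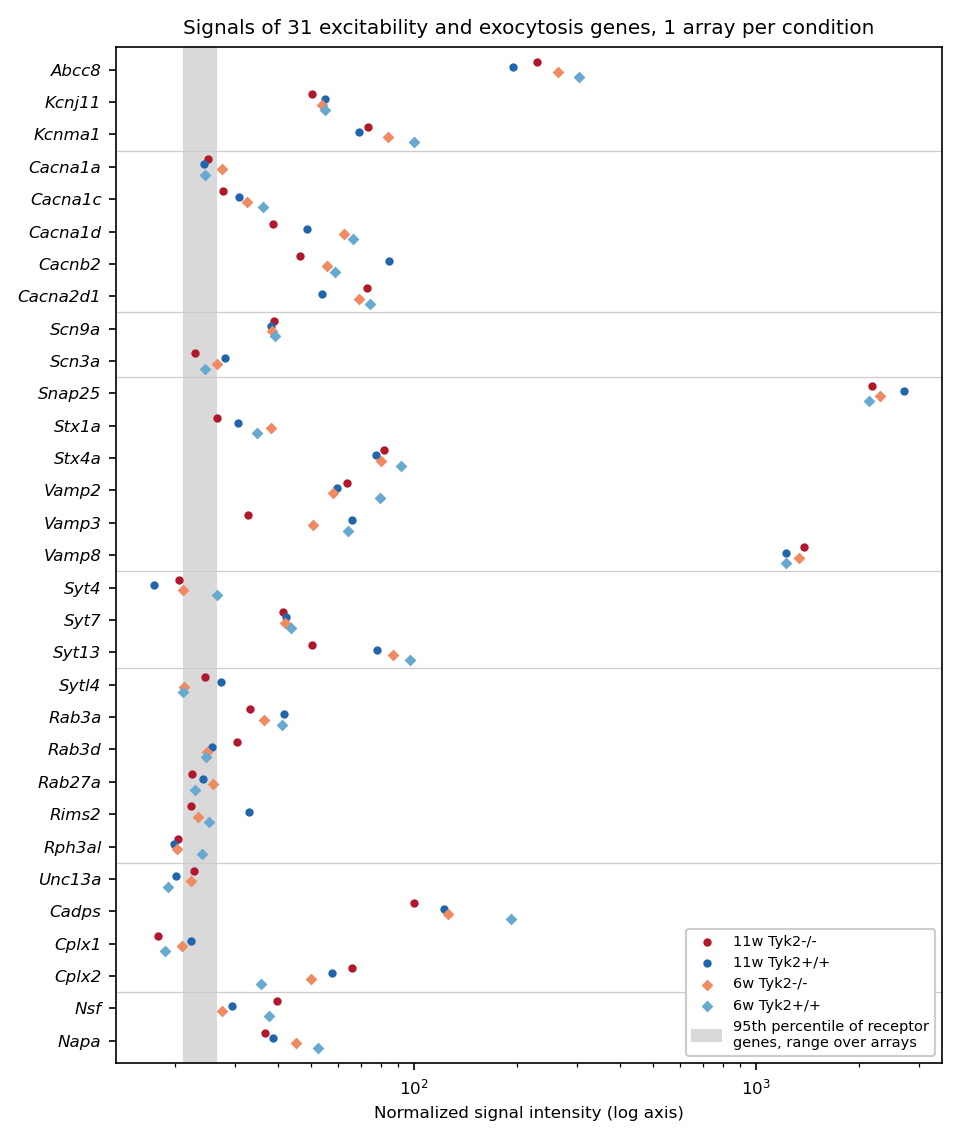
Normalized signal intensity (log axis) of the 31 excitability and exocytosis genes, grouped by role from potassium channels (top) to SNARE disassembly (bottom), with 1 point for each of the 4 arrays and no error bars because each condition has 1 array. The grey band spans the 95th percentiles of olfactory and vomeronasal receptor genes on the 4 arrays, from 21.2 to 26.3. Points of Scn9a and Syt7 nearly coincide, and those of Vamp3, Syt13 and Cadps lie farthest apart.

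Both subunits of the KATP channel, which couples ATP to membrane potential, were well above the receptor genes. Abcc8, which encodes the sulfonylurea receptor, had signals of 228 in Tyk2-/- and 195 in Tyk2+/+ at 11w, and 263 in Tyk2-/- and 305 in Tyk2+/+ at 6w. Its 11w signals lay below its 6w signals in both genotypes, with log2 differences of −0.20 in Tyk2-/- and −0.64 in Tyk2+/+ β-cells. This order depends on the scaling, since quantile normalization of the arrays gave Abcc8 log2 differences with age of 0.10 in Tyk2-/- and −0.30 in Tyk2+/+ β-cells. Kcnj11, which encodes the pore of the same channel, gave 50.2 in Tyk2-/- and 55.1 in Tyk2+/+ at 11w, and 53.8 in Tyk2-/- and 54.9 in Tyk2+/+ at 6w. Its highest signal was 1.10 times its lowest. Kcnma1, the pore of the large-conductance potassium channel opened by calcium and voltage, gave 73.3 in Tyk2-/- and 69.0 in Tyk2+/+ at 11w, and 83.8 in Tyk2-/- and 99.8 in Tyk2+/+ at 6w. Like Abcc8 it was lower on both 11w arrays, by log2 differences of −0.19 in Tyk2-/- and −0.53 in Tyk2+/+ β-cells, against ratios of 4.31-fold and 4.81-fold needed for a call.

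Among the calcium channel genes, Cacna1d, the pore of an L-type channel that opens at low voltage, had the clearest order with age. Its signals were 38.6 in Tyk2-/- and 48.7 in Tyk2+/+ at 11w, and 62.4 in Tyk2-/- and 66.3 in Tyk2+/+ at 6w. Both 11w signals lay below both 6w signals, with log2 differences of −0.69 in Tyk2-/- and −0.44 in Tyk2+/+ β-cells (Z scores −0.77 and −0.44). Cacna1c, the pore of the other main L-type channel, gave 27.6 in Tyk2-/- and 30.8 in Tyk2+/+ at 11w, and 32.5 in Tyk2-/- and 36.1 in Tyk2+/+ at 6w, with log2 differences with age of −0.24 in Tyk2-/- and −0.23 in Tyk2+/+ β-cells. Cacna1a, the pore of the P/Q-type channel, had signals of 25 in Tyk2-/- and 24.3 in Tyk2+/+ at 11w, and 27.5 in Tyk2-/- and 24.5 in Tyk2+/+ at 6w, near the receptor percentile. Of the subunits that set the surface level and gating of these pores, Cacnb2 gave 46.5 in Tyk2-/- and 84.7 in Tyk2+/+ at 11w, and 55.6 in Tyk2-/- and 58.8 in Tyk2+/+ at 6w. The 11w Tyk2+/+ array alone stood above the others, which gave a log2 difference of −0.87 between the genotypes at 11w (Z score −0.96) and −0.08 at 6w. Cacna2d1, an α2δ subunit, was lowest on that same array, with 72.7 in Tyk2-/- and 54.0 in Tyk2+/+ at 11w, and 69.1 in Tyk2-/- and 74.6 in Tyk2+/+ at 6w. Over the 5 calcium channel genes the median log2 difference with age was −0.24 in Tyk2-/- and −0.23 in Tyk2+/+ β-cells, with 4 of 5 negative in each. The 4 include Cacna1a, at −0.14 in Tyk2-/- and −0.01 in Tyk2+/+ β-cells. Of all genes, 40.4% were negative in Tyk2-/- and 38.4% in Tyk2+/+ β-cells. Of genes with a mean log2 signal at or above the median of all features, 47.7% and 48.7% were.

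Scn9a, one of the sodium channel pores of mouse β-cells, had the narrowest range of the 31 genes, with signals of 39.0 in Tyk2-/- and 38.2 in Tyk2+/+ at 11w, and 38.4 in Tyk2-/- and 39.2 in Tyk2+/+ at 6w. Scn3a, the other sodium channel pore on the list, gave 22.8 in Tyk2-/- and 28.0 in Tyk2+/+ at 11w, and 26.6 in Tyk2-/- and 24.5 in Tyk2+/+ at 6w, and was above the receptor percentile on 3 of the 4 arrays.

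The SNAREs Snap25 and Vamp8 were far above the receptor genes on all 4 arrays. Snap25, which supplies a pair of helices to the fusion complex, had signals of 2192 in Tyk2-/- and 2718 in Tyk2+/+ at 11w, and 2304 in Tyk2-/- and 2144 in Tyk2+/+ at 6w. Vamp8, a v-SNARE linked to newcomer granules and endosomes, gave 1378 in Tyk2-/- and 1226 in Tyk2+/+ at 11w, and 1338 in Tyk2-/- and 1221 in Tyk2+/+ at 6w, the highest 1.13 times the lowest. For both, the difference with age depends on the scaling. The log2 differences of Snap25 with age were −0.07 in Tyk2-/- and 0.34 in Tyk2+/+ β-cells as deposited, and 0.47 in Tyk2-/- and 0.92 in Tyk2+/+ β-cells after quantile normalization. Those of Vamp8 were 0.04 in Tyk2-/- and 0.01 in Tyk2+/+ β-cells as deposited, and 0.52 in Tyk2-/- and 0.46 in Tyk2+/+ β-cells after quantile normalization. Vamp3, a v-SNARE close to Vamp2 in sequence, had the widest range of all 31 genes. Its signals were 32.8 in Tyk2-/- and 65.6 in Tyk2+/+ at 11w, and 50.6 in Tyk2-/- and 63.9 in Tyk2+/+ at 6w. Both Tyk2-/- arrays lay below both Tyk2+/+ arrays, with log2 differences between the genotypes of −1.0 at 11w (Z score −1.42) and −0.34 at 6w (Z score −0.32). Vamp2, the v-SNARE of insulin granules in regulated release, gave 63.9 in Tyk2-/- and 59.5 in Tyk2+/+ at 11w, and 58.1 in Tyk2-/- and 79.4 in Tyk2+/+ at 6w, where the 6w Tyk2+/+ array alone was high. The syntaxin Stx1a, which pairs with Snap25 at docked granules, gave 26.5 in Tyk2-/- and 30.6 in Tyk2+/+ at 11w, and 38.2 in Tyk2-/- and 34.9 in Tyk2+/+ at 6w, lower on both 11w arrays. Its log2 difference with age of −0.53 in Tyk2-/- β-cells had a Z score of −0.94, the lowest of the 31 in that comparison. Stx4a, a plasma membrane syntaxin of wider distribution, gave 81.8 in Tyk2-/- and 77.2 in Tyk2+/+ at 11w, and 80.2 in Tyk2-/- and 91.5 in Tyk2+/+ at 6w.

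The synaptotagmins differed among themselves in range. Syt7, the high-affinity calcium sensor of insulin granules, gave nearly equal signals of 41.5 in Tyk2-/- and 42.1 in Tyk2+/+ at 11w, and 42.0 in Tyk2-/- and 43.7 in Tyk2+/+ at 6w. Syt13, an atypical member that does not bind calcium, gave 50.3 in Tyk2-/- and 77.7 in Tyk2+/+ at 11w, and 86.9 in Tyk2-/- and 97.4 in Tyk2+/+ at 6w, and its log2 difference with age was −0.79 in Tyk2-/- and −0.33 in Tyk2+/+ β-cells (Z scores −0.77 and −0.30). The −0.79 was the lowest log2 difference with age of the 31 genes in Tyk2-/- β-cells, and Syt13 kept that place, at −0.67, after quantile normalization. Syt4, which lowers the calcium sensitivity of release in maturing mouse β-cells, had signals of 20.6 in Tyk2-/- and 17.3 in Tyk2+/+ at 11w, and 21.2 in Tyk2-/- and 26.5 in Tyk2+/+ at 6w. Its log2 difference with age in Tyk2+/+ β-cells was −0.61 with a Z score of −1.51, the Z score farthest from 0 among the 31 genes in all 4 comparisons, but only its 6w Tyk2+/+ signal was above the receptor percentile.

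The Rab GTPases and their effectors mark granules and tether them. Rab3a, the synaptic form, gave 33.2 in Tyk2-/- and 41.6 in Tyk2+/+ at 11w, and 36.4 in Tyk2-/- and 41.1 in Tyk2+/+ at 6w, with both Tyk2-/- arrays below both Tyk2+/+ arrays (log2 differences of −0.32 at 11w and −0.18 at 6w). Rab3d, its relative on other secretory granules, gave 30.3 in Tyk2-/- and 25.6 in Tyk2+/+ at 11w, and 24.8 in Tyk2-/- and 24.6 in Tyk2+/+ at 6w. Rab3d lies on chromosome 9, with 23 protein-coding genes between it and Tyk2 in the RefSeq annotation, and its log2 difference between the genotypes was 0.24 at 11w and 0.01 at 6w. Rab27a lies on the same chromosome, 586 protein-coding genes from Tyk2. Whether Rab3d lies within the segment of other than NOD origin was not tested. Rab27a, which recruits granuphilin and other effectors to granules, gave 22.4 in Tyk2-/- and 24.1 in Tyk2+/+ at 11w, and 25.9 in Tyk2-/- and 23.0 in Tyk2+/+ at 6w. Sytl4, which encodes granuphilin, gave 24.5 in Tyk2-/- and 27.3 in Tyk2+/+ at 11w, and 21.2 in Tyk2-/- and 21.2 in Tyk2+/+ at 6w. Both 11w signals of Sytl4 were the higher ones, with log2 differences with age of 0.21 in Tyk2-/- and 0.37 in Tyk2+/+ β-cells, at or below the receptor percentile on 3 of 4 arrays. Rims2, a scaffold that binds Rab3 at the release site, gave 22.2 in Tyk2-/- and 32.8 in Tyk2+/+ at 11w, and 23.3 in Tyk2-/- and 25.1 in Tyk2+/+ at 6w, with the 11w Tyk2+/+ array alone high and a log2 difference between the genotypes at 11w of −0.56 (Z score −1.19). The 11w Tyk2-/- signal of Rims2 was itself below the receptor percentile. Rph3al, which encodes the Rab effector Noc2, gave 20.4 in Tyk2-/- and 19.9 in Tyk2+/+ at 11w, and 20.2 in Tyk2-/- and 23.9 in Tyk2+/+ at 6w.

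Among the priming factors and fusion clamps, Cadps and Cplx2 ran in opposite directions. Cadps, which primes dense-core granules, had signals of 99.8 in Tyk2-/- and 123 in Tyk2+/+ at 11w, and 126 in Tyk2-/- and 193 in Tyk2+/+ at 6w. It was highest on the 6w Tyk2+/+ array, and gave the lowest log2 differences of the 31 genes with age in Tyk2+/+ β-cells (−0.65, Z score −0.54) and between the genotypes at 6w (−0.61, Z score −0.58), which share that array. After quantile normalization the Cadps difference with age in Tyk2+/+ β-cells was −0.33, and Syt4, at −0.72, was lowest in its place. Cplx2, a complexin that binds assembled SNAREs, had signals of 65.8 in Tyk2-/- and 57.7 in Tyk2+/+ at 11w, and 49.9 in Tyk2-/- and 35.7 in Tyk2+/+ at 6w. It was lowest on the 6w Tyk2+/+ array, with log2 differences with age of 0.40 in Tyk2-/- and 0.69 in Tyk2+/+ β-cells (Z scores 0.41 and 0.82), and of 0.19 at 11w and 0.48 at 6w between the genotypes. The other complexin on the list, Cplx1, gave 17.9 in Tyk2-/- and 22.3 in Tyk2+/+ at 11w, and 21.0 in Tyk2-/- and 18.7 in Tyk2+/+ at 6w. Unc13a, which opens syntaxin for SNARE assembly, gave 22.7 in Tyk2-/- and 20.1 in Tyk2+/+ at 11w, and 22.2 in Tyk2-/- and 19.1 in Tyk2+/+ at 6w. These last 2 genes did not exceed the receptor percentile on any array.

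Nsf, the ATPase that takes SNARE complexes apart, had signals of 39.6 in Tyk2-/- and 29.3 in Tyk2+/+ at 11w, and 27.4 in Tyk2-/- and 37.8 in Tyk2+/+ at 6w. The 11w Tyk2-/- and 6w Tyk2+/+ arrays were the high ones, so its log2 differences with age had opposite signs, 0.53 in Tyk2-/- and −0.37 in Tyk2+/+ β-cells. Napa, which encodes the adaptor that brings Nsf to SNAREs, gave 36.5 in Tyk2-/- and 38.8 in Tyk2+/+ at 11w, and 45.0 in Tyk2-/- and 52.4 in Tyk2+/+ at 6w, with both 11w signals below both 6w signals (log2 differences of −0.30 in Tyk2-/- and −0.43 in Tyk2+/+ β-cells).

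**Figure D2:**
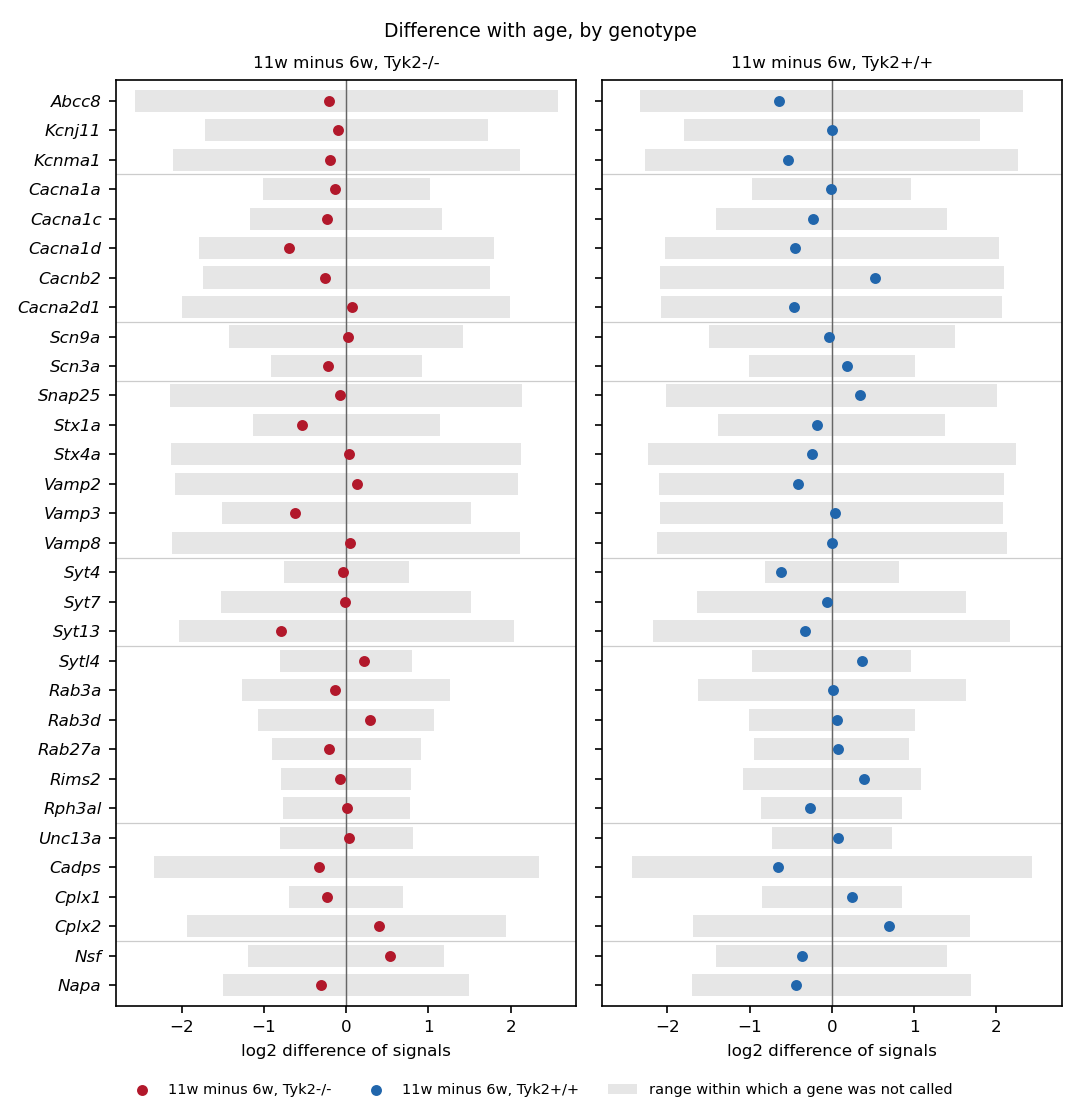
Log2 difference of signals, 11w minus 6w, for the 31 genes in Tyk2-/- (left) and Tyk2+/+ (right) β-cells, 1 array per condition. Each grey bar spans the differences at which a gene was not called, and all 31 points lie inside their bars in both genotypes.

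Over the 31 genes, the median log2 difference with age was −0.10 in Tyk2-/- β-cells, where 11 were positive and 20 negative, and −0.04 in Tyk2+/+ β-cells, where 14 were positive and 17 negative. Over all genes these medians were 0.05 and 0.07. Ratios with age above 1.5 or below 0.66 were found for 3 genes in Tyk2-/- β-cells (Cacna1d, Vamp3 and Syt13, all below) and 4 in Tyk2+/+ β-cells (Cplx2 above, and Abcc8, Syt4 and Cadps below). Such ratios were found for 12.2% of all genes in Tyk2-/- and 13.6% in Tyk2+/+ β-cells. The age comparisons of the genotypes share no array. Both were negative for 11 of the 31 genes (Abcc8, Kcnma1, Cacna1a, Cacna1c, Cacna1d, Stx1a, Syt4, Syt7, Syt13, Cadps and Napa), which is 35.5% against 21.0% of all genes, and both were positive for 5 (Vamp8, Sytl4, Rab3d, Unc13a and Cplx2), which is 16.1% against 41.5%. This split depends on brightness and on how the arrays are scaled to each other. All 31 genes had a mean log2 signal at or above the median of all features, and of the 16927 genes that did so 29.6% were negative in both and 32.9% positive in both. With arrays centred on their medians, 21 of the 31 genes were negative in both and 2 positive in both, against 39.9% and 19.2% of all genes, while quantile normalization gave 12 and 5 genes, against 31.9% and 25.1% of all genes. After quantile normalization Abcc8 and Syt7 were no longer among those negative in both, and Rph3al, Unc13a and Rab27a were.

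The one fit that left a residual degree of freedom took age and genotype as additive terms over all 4 arrays. It assumes that the difference with age is alike in both genotypes, and was fitted with limma over all features. It called none of the 31 genes and none of all 30176 genes for age or genotype at an adjusted p (Benjamini-Hochberg, two-sided) under 0.05. The lowest adjusted p among the 31 was 0.503 for age and 0.919 for genotype. Before adjustment, 3 of the 31 passed 0.05 for age, where 9.43% of all genes did. Limma gave Cacna1d a log2 difference of −0.57 (SE 0.14, 95% interval −1.02 to −0.12, adjusted p = 0.503), Cplx2 one of 0.54 (SE 0.15, 0.07 to 1.01, adjusted p = 0.506) and Cadps one of −0.49 (SE 0.15, −0.97 to −0.01, adjusted p = 0.511). With a variance prior that follows the signal, none of these 3 passed 0.05 before adjustment. For genotype none of the 31 passed before adjustment, where 4.2% of all genes did. The 95% intervals reached a median of 0.47 on the log2 scale to each side of the estimate, from 0.39 for the narrowest to 0.89 for the widest. Scn9a and Syt7 were picked for having the smallest ranges on these same arrays. Their intervals for age were −0.40 to 0.38 and −0.43 to 0.35. With the variance prior that follows the signal they were −0.54 to 0.53 and −0.59 to 0.52.

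**Figure D3:**
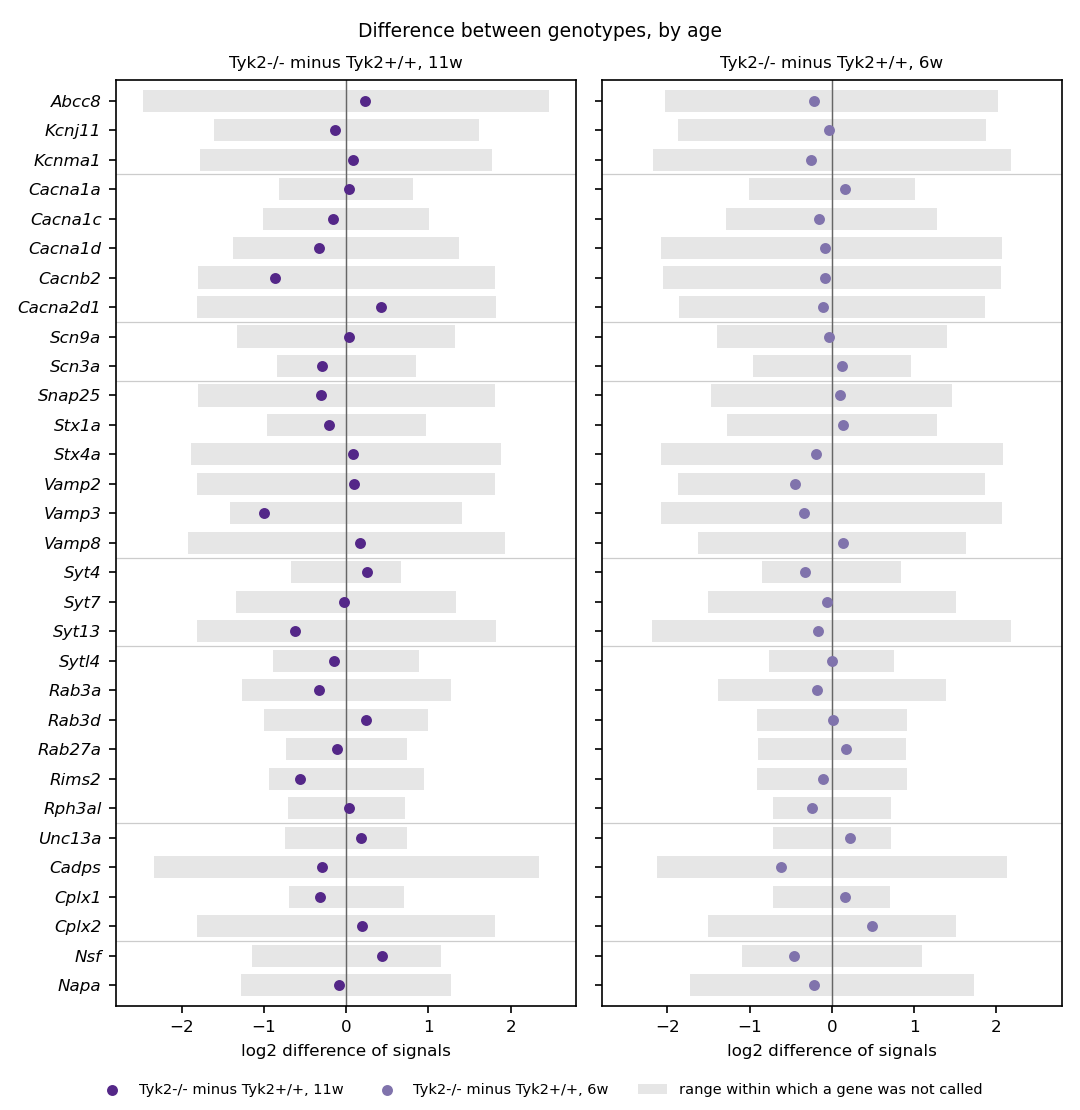
Log2 difference of signals, Tyk2-/- minus Tyk2+/+, for the 31 genes at 11w (left) and 6w (right), 1 array per condition. Each grey bar spans the differences at which a gene was not called. All points lie inside their bars, with Vamp3 at 11w, at −1.0, the farthest from 0.

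Between the genotypes, the median log2 difference of the 31 genes was −0.09 at 11w, where 14 were positive and 17 negative, and −0.09 at 6w, where 11 were positive and 20 negative. Over all genes these medians were 0.01 and 0.03. At 11w, Vamp3 had the one ratio beyond 2 or 0.5 among the 31 genes in any comparison, where 3.64% of all genes had such ratios at 11w, 3.13% at 6w, and, with age, 5.12% in Tyk2-/- and 5.58% in Tyk2+/+ β-cells. At 11w, Cacnb2, Vamp3 and Syt13 had ratios below 0.66, and at 6w Cadps did, where 9.97% and 8.23% of all genes had ratios above 1.5 or below 0.66. The comparisons at 11w and 6w share no array. Both were negative for 11 genes (Kcnj11, Cacna1c, Cacna1d, Cacnb2, Vamp3, Syt7, Syt13, Rab3a, Rims2, Cadps and Napa), which is 35.5% against 21.3% of all genes, and both were positive for 5 (Cacna1a, Vamp8, Rab3d, Unc13a and Cplx2), which is 16.1% against 29.8%. Of the genes at or above the median signal, 23.1% were negative in both and 28.3% positive in both. With arrays centred on their medians, 12 of the 31 genes were negative in both, against 27.9% of all genes, and quantile normalization also gave 12, against 26.9%.

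As deposited, signals of the 31 genes ranged over the 4 arrays about as far at the median as those of all genes. Among the 31, the highest signal was 1.31 times the lowest at the median, from 1.03 times (Scn9a) to 2.0 times (Vamp3). Of them, 23 stayed under 1.5 times. Over all genes the median was 1.29 times and 72.1% stayed under 1.5 times, and over the genes at or above the median signal it was 1.40 times with 58.8% under 1.5 times. Vamp3, just above 2 times, was the single gene of the 31 past that limit, or 3.23% of them, against 11.6% of all genes and 19.9% of those at or above the median signal. The lowest signal fell on the 11w Tyk2-/- array for 15 of the 31 genes and the highest on the 6w Tyk2+/+ array for 14. Of all genes, 18.3% had their lowest signal on the 11w Tyk2-/- array and 17.6% their highest on the 6w Tyk2+/+ array, and of those at or above the median signal 22.9% and 24.0% did.

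**Figure D4:**
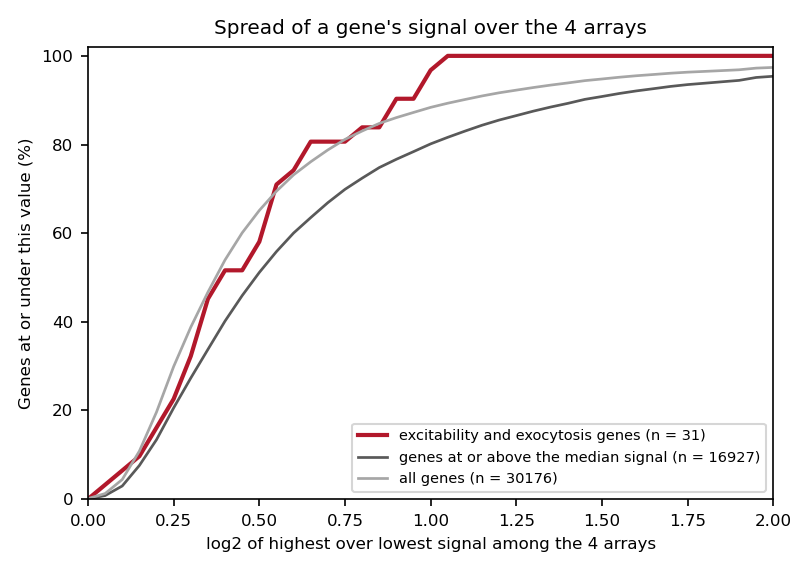
Percentage of genes (y axis) whose highest signal over lowest signal among the 4 arrays is at or under a given log2 value (x axis), for the 31 genes, the 16927 genes at or above the median signal and all 30176 genes. The curve of the 31 genes reaches its top near a log2 value of 1, at the gene of widest range. The other curves hold many more genes, so the points where the curves end are not compared.

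Related genes outside the list of 32 were read in the same way. Of 53 measured genes of other ion channels, pumps and calcium stores, none was called in any comparison. Their median log2 differences with age were 0.06 in Tyk2-/- and 0.05 in Tyk2+/+ β-cells. Their median signals were 16.6 in Tyk2-/- and 17.1 in Tyk2+/+ at 11w, and 16.1 in Tyk2-/- and 16.4 in Tyk2+/+ at 6w. These lay below the receptor percentile of each array, so the lack of calls does not show that these genes were steady. Of 78 measured genes of other exocytosis proteins, Syt17, Exoc6, Napb and Sv2b were called higher with age in Tyk2-/- β-cells and none lower. Of all genes, 1.62% were called higher and 1.35% lower there. Rab2a was called lower with age in Tyk2+/+ β-cells and none higher, where 2.14% of all genes were called higher and 1.45% lower. Exoc6, a subunit of the exocyst tether, had signals of 115 in Tyk2-/- and 30.8 in Tyk2+/+ at 11w, and 24.4 in Tyk2-/- and 45.9 in Tyk2+/+ at 6w. It was called higher in Tyk2-/- β-cells at 11w too, as were Syt17 and Napb, and none of the 78 was called lower. Of all genes, 1.51% were called higher and 1.35% lower in that comparison. All 3 calls rest on the 11w Tyk2-/- array that both comparisons share. Napb, a relative of Napa, gave 45.0 in Tyk2-/- and 19.7 in Tyk2+/+ at 11w, and 18.1 in Tyk2-/- and 18.6 in Tyk2+/+ at 6w, and Syt17 gave 35.2 in Tyk2-/- and 12.9 in Tyk2+/+ at 11w, and 12.5 in Tyk2-/- and 12.7 in Tyk2+/+ at 6w. Sv2b, a synaptic vesicle glycoprotein gene, gave 131 in Tyk2-/- and 52.8 in Tyk2+/+ at 11w, and 28.6 in Tyk2-/- and 24.3 in Tyk2+/+ at 6w, with 11w signals above 6w signals in both genotypes. Rab2a, a Rab GTPase of the Golgi and of granule formation, gave 1256 in Tyk2-/- and 998 in Tyk2+/+ at 11w, and 2833 in Tyk2-/- and 4625 in Tyk2+/+ at 6w, and its log2 differences with age were −1.17 in Tyk2-/- (not called) and −2.21 in Tyk2+/+ β-cells. Syt16 was called lower in Tyk2-/- β-cells at 6w, with 15.5 in Tyk2-/- against 30.6 in Tyk2+/+, and none of the 78 higher. Of all genes, 1.26% were called higher and 1.09% lower there. Syt17, Napb and Syt16 were each above the receptor percentile on 1 array, so their other signals cannot be told apart from background.

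Other endocrine islet cells were looked for by their markers. Of 4 alpha cell markers and 6 delta and PP cell markers measured, none was called in any comparison. Gcg, Sst and Ppy stood at the highest signal of each array, where differences could not be measured. Rbp4 had the same log2 differences as Gcg, Sst and Ppy in all 4 comparisons, so its differences are not taken as measured either. Ttr, Rbp4 and Pyy were above the receptor percentile on all 4 arrays, Hhex on 3, Irx2 on 1, and Irx1 and Ghsr on none. Neurons and Schwann cells, which also use much of this machinery, were looked for in the same way. Of 7 neuronal markers measured none was called, and 6 of them, among them Rbfox3, Elavl3, Tubb3 and Slc17a6, were below the receptor percentile on all 4 arrays, while Dcx was above it on all 4. Of 4 Schwann cell markers, Gfap was called higher at 11w in Tyk2+/+ β-cells, and Sox10, S100b and Mbp were below the percentile on all 4 arrays. Of 10 acinar cell markers measured, Cela2a and Sycn were called higher with age in Tyk2-/- β-cells, Cela2a, Clps and Sycn were higher in Tyk2-/- β-cells at 11w, and Prss2 was lower in Tyk2-/- β-cells at 6w. Cela2a, Sycn and Prss2 were each above the receptor percentile on 1 array and Clps on 3. Of the acinar markers not called, Cela1 and Ctrb1 were above it on all 4, Cpb1 on 1, and Prss1, Cpa1 and Cela3b on none. The summed signal of the 10 was 335 in Tyk2-/- and 226 in Tyk2+/+ at 11w, and 223 in Tyk2-/- and 266 in Tyk2+/+ at 6w. Of 7 endothelial cell markers, Plvap was called higher with age in Tyk2-/- β-cells and higher in Tyk2-/- β-cells at 11w, with all its signals below the receptor percentile. None of 7 fibroblast and stellate cell markers and 6 duct cell markers was called. Col1a1, Col3a1, Dcn and Lum of the first and Krt7 of the second were above the receptor percentile on all 4 arrays. Dcn had signals of 14257 in Tyk2-/- and 12360 in Tyk2+/+ at 11w, and 8375 in Tyk2-/- and 15275 in Tyk2+/+ at 6w. Of the leukocyte markers none was called, and Lyz2 alone was above the percentile, on 2 arrays. The part of these cell types in the signals of the 31 genes was not tested. In pooled cells, a lower signal from less RNA per β-cell cannot be told apart from one of fewer β-cells among the sorted cells.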

How the data were processed

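The authors deposited normalized signal intensity values, on a linear scale, for 65956 features of Affymetrix Clariom D mouse arrays, and per the labels they used Affymetrix Expression Console. Its version, the background correction and the normalization are not given in the sources used here, and the values themselves showed the scale to be linear. The array's gene table paired 30638 features with 1 symbol, 2176 with several and 33142 with none. Of the first, 22596 were matched to RefSeq by Entrez identifier and took its symbol, and the others kept the array's own symbol. Together they gave 30176 genes, each read from its feature with the highest mean signal. Coordinates are left out because no genome build was stated for the array.

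Signals were put on the log2 scale with no value added. The study's methods limit a Z score, whose calculation they do not give, and a ratio, whose limits, printed the other way round, were read as above 1.5 and below 0.66. The additive model used limma 3.58.1 in R 4.3.3, other steps Python 3.11.15, NumPy 2.4.6, pandas 2.3.3, SciPy 1.17.1 and matplotlib 3.10.9. The calling was tested on simulated data. The genes and lists were chosen with earlier results of these data known. Named were all 31 measured genes, the called genes of the lists of related genes, and called or defining cell type markers. Alternatives were a window of 500 features, 1 SD for all features, a ratio alone, median centring, quantile normalization, 16 added to each signal, no dim features and the mean of a gene's features.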

Additional observations from a re-analysis of the deposited data

Results flagged for a closer look

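Nsf, the ATPase of SNARE disassembly, differed with age in opposite directions in the genotypes. It was singled out, after its values were seen, as the one gene of the 31 whose opposite differences were both at least 1.25-fold. Its log2 difference between 11w and 6w was 0.53 in Tyk2-/- and −0.37 in Tyk2+/+ β-cells, and the first minus the second was 0.896. Neither difference was called, the Z scores were 0.89 and −0.52, and with 1 array per condition the difference between the genotypes was not tested. Differences with age were not of the same sign in both genotypes for 48.4% of the 31 genes and 37.4% of all genes. The share of all genes with opposite differences of at least 1.25-fold is not given here. Nsf was above the receptor genes' 95th percentile on all 4 arrays and above their 99th on 1.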

How the results depend on the processing

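No call was made among the 31 genes in any comparison under a window of 500 features, 1 SD for all features, median centring, quantile normalization, 16 added to each signal, removal of dim features or the mean of a gene's features. Of all genes kept, 1.19% to 4.47% were called, depending on the setting and comparison. A count of 0 among 31 genes lies near these shares. With a ratio above 2 or below 0.5 and no Z score, 1 gene, Vamp3, was called lower in Tyk2-/- β-cells at 11w (log2 difference −1.0), where 3.64% of all genes passed, and none in the other 3 comparisons. The count of genes above the receptor genes on all 4 arrays was 22 with the 95th percentile and 13 with the 99th, a limit chosen after seeing the data. Centring turned the sign of 6 (Tyk2-/-) and 7 (Tyk2+/+) of the 31 differences with age, and quantile normalization of 5 (Tyk2-/-) and 4 (Tyk2+/+). Each turned 2 of the differences between the genotypes at 6w and 0 at 11w, and the other settings turned none. Centring moved the median of the 31 to −0.21 in Tyk2-/- and −0.18 in Tyk2+/+ β-cells, and that of all genes to −0.06 and −0.07. Of all genes called with age, 54.5% were higher in Tyk2-/- and 59.6% in Tyk2+/+ β-cells, but 35.1% and 32% after centring and 42.5% in each after quantile normalization. The share lay between 20.1% and 44.2% with 1 SD for all features, the ratio alone, 16 added or no dim features. The additive model called none of the 31 under its 4 alternatives, with a lowest adjusted p from limma of 0.466 to 0.590 for age and 0.906 to 0.936 for genotype. Before adjustment, 0 to 5 of the 31 passed 0.05 for age and 0 or 1 for genotype. In the main fit 9.43% of all genes passed for age and 4.2% for genotype, and these shares were not taken for the alternatives. No paired analysis was possible because each condition had 1 array, of RNA pooled from several mice. The additive model fitted age with genotype as a term. The number of arrays, the spread of features of like signal and signals near those of the receptor genes limit what can be seen.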
